A study of Arachis hypogaea with 3 samples.

Results

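The structural proteins of the plant cell wall were examined through their transcripts in gynophores of peanut (Arachis hypogaea). The gynophore is a stalk that elongates after fertilization and carries the ovary into the soil. The members were the reference sequences whose best protein match was described with the words arabinogalactan, extensin, proline-rich, glycine-rich or fasciclin, in upper or lower case. This rule used no expression value and found 49 of 83579 sequences, of which 44 had a read in at least 1 of the 3 libraries. They were 9 fasciclin-like arabinogalactan proteins, 5 extensin/nodulin sequences, 5 leucine-rich repeat extensins, 1 extensin peroxidase, 6 hydroxyproline-rich glycoproteins, 12 proline-rich proteins, 8 glycine-rich proteins and 3 glycine-rich RNA-binding proteins. The name "structural wall protein" does not cover all of them. The extensin peroxidase is an enzyme, and the RNA-binding proteins belong to RNA metabolism.

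All libraries came from field-grown plants of the cultivar Luhua 14, with 1 library per stage. S1 gynophores were aerial, green or purple and 3 to 5 cm long, S2 gynophores had spent about 3 days in the soil, and S3 gynophores had developed in the dark and carried pods 2 to 3 mm in length. RNA selected for its poly(A) tail was sequenced, and the counted reads, in units of 1000000, came to 6.91 (S1), 6.67 (S2) and 7.15 (S3). Levels are given as RPKM, reads per kilobase of sequence in a library scaled to 1000000 counted reads, and sums over a class as RPM, the summed reads in a library scaled in the same way. As each stage is 1 library, differences between stages are differences between single libraries, with neither SD nor p-value. Except for medians, brackets hold 95% intervals, by the exact Poisson method for levels and the exact Clopper-Pearson method for ratios. They cover counting error at most, because each stage is 1 library. They may be too narrow even for that, because reads without molecular identifiers are not independent molecules. In tissue RNA, fewer cells of a type and less RNA per cell cannot be told apart.

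Extensins, arabinogalactan proteins and many proline-rich proteins of plants form the hydroxyproline-rich glycoprotein superfamily. Prolyl 4-hydroxylases convert some of their prolines to hydroxyproline in the secretory pathway, and glycosyltransferases then attach arabinose or branched arabinogalactan chains. Extensins are cross-linked in the wall by peroxidases, many fasciclin-like arabinogalactan proteins are held at the plasma membrane by a glycosylphosphatidylinositol (GPI) anchor, and glycine-rich wall proteins are best known from vascular tissue.

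The 49 members comprised 12 assembled unigenes and 37 public peanut sequences, so that 24.5% were unigenes, against 61.6% of all sequences. Their lengths ranged from 228 to 1499 bases, with a median of 605 against 433 for all sequences. Only 26 different best matches lay behind the 49 members, since 9 of the matched proteins were shared by 32 sequences. Sequences with a shared match may be parts, alleles or copies of 1 gene, and the counting kept only reads with a unique position, so reads common to near-identical copies are missing from both. The 5 members without any read were 3 DC2.15-type proline-rich sequences (JK178273, JK182555 and JK186447), the hydroxyproline-rich JK204411 and the glycine-rich GW985709. In all 3 libraries together, 38 members reached 10 reads and 30 reached 50.

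The members together took 0.279% (S1), 0.3003% (S2) and 0.202% (S3) of the counted reads. This sum hid opposite movements of its classes. Fasciclin-like and extensin/nodulin transcripts were most abundant in S1, hydroxyproline-rich and proline-rich transcripts in S2, and glycine-rich and glycine-rich RNA-binding transcripts in S3. The leucine-rich repeat extensins were low and differed little between stages. In most classes 1 sequence carried a large part of the reads, and the class sums with and without it are given below.

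**Figure D1:**
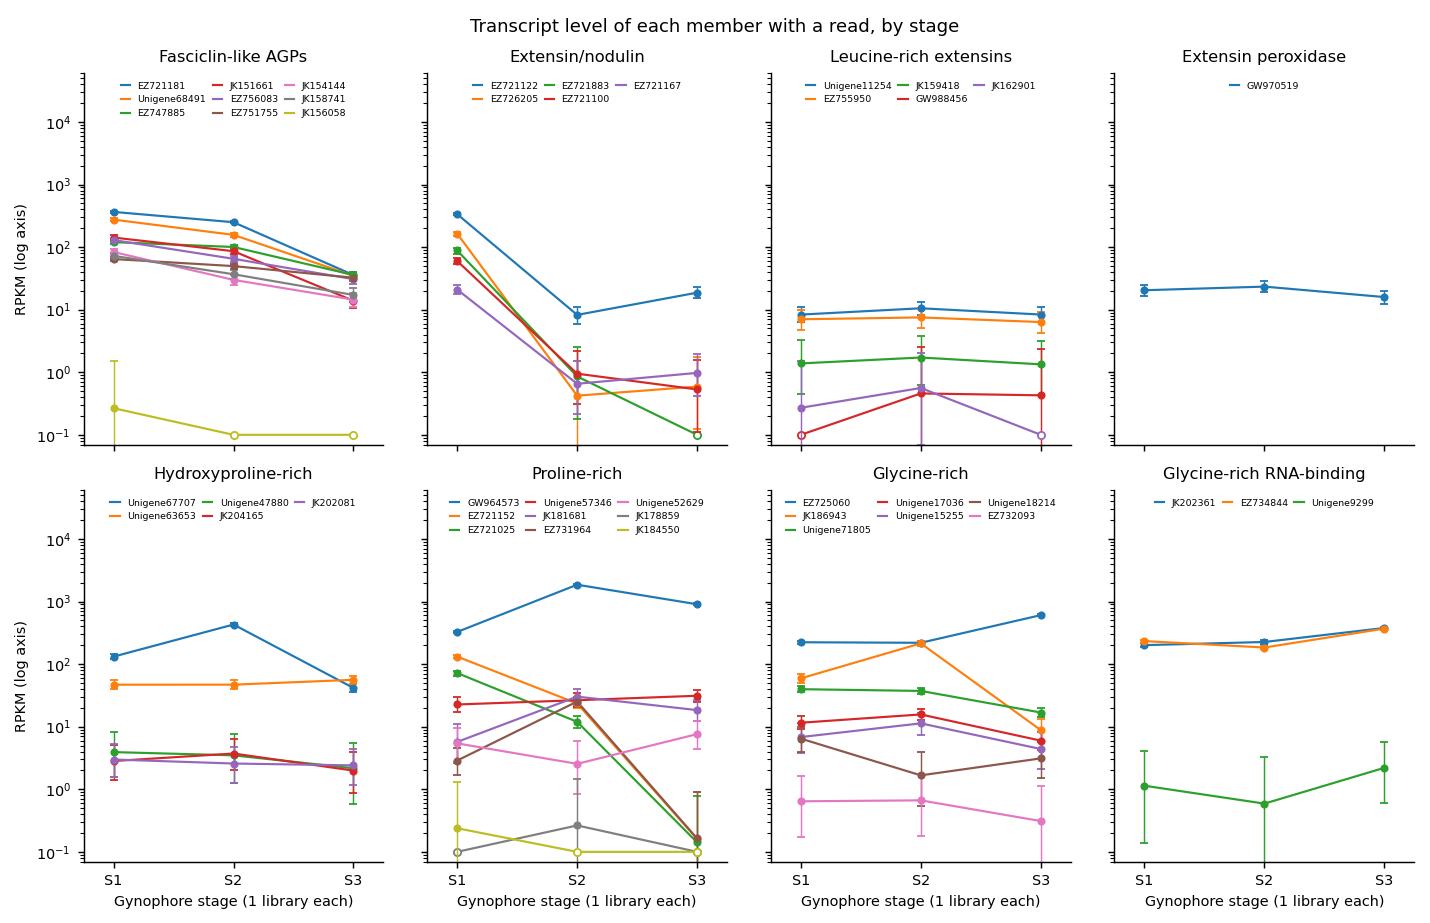
Level of each member with a read in S1, S2 and S3, in 1 panel per class, as RPKM on a log axis. Points are single libraries, bars are 95% exact Poisson intervals, and open circles drawn at 0.1 mark a library with no read. The fasciclin-like lines descend to S3, the 5 extensin/nodulin lines drop after S1, and the proline-rich and glycine-rich panels hold lines of opposite direction.

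A member was counted as higher or lower when its RPKM + 1 differed at least 2 times between stages. Between S2 and S1, 5 of the 44 members with a read were higher in S2 and 9 were lower, where 9.03% and 9.19% of all sequences with a read were. Between S3 and S2, 4 members were higher in S3 and 16 were lower, against 18.6% and 11.4% of all sequences. Between S3 and S1, 3 members were higher in S3 and 18 were lower, against 21% and 13.9% of all sequences. As shares of the 44 members, the lower counts came to 20.5%, 36.4% and 40.9% in these 3 comparisons, and the higher counts to 11.4%, 9.09% and 6.82%. In S2 against S1 the share of lower members rested on the 5 extensin/nodulin sequences, which have 1 best match in common. Without them 4 of 39 members (10.3%) were lower, and with 1 sequence per shared match 3 of 25 (12%), near the share of all sequences. In the comparisons with S3 the shares without these 5 were 41.0% against S2 and 33.3% against S1, and with 1 sequence per match 44% against each.

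The median log2 ratio of RPKM + 1 over the 44 members was -0.15 (-0.43 to 0.17) for S2 to S1, -0.51 (-1.001 to -0.21) for S3 to S2 and -0.59 (-1.72 to -0.31) for S3 to S1. These brackets are order-statistic intervals over members, many of which share a match and are not independent. They describe the spread among members and not the error of a stage difference. Over all sequences with a read the median was 0, 0.18 and 0.16. The median sequence was thus higher in S3 than in the other libraries, and the members lay below it in both comparisons that include S3. Median-of-ratios scaling of the libraries multiplied the S3 to S2 ratios by 0.838 and the S3 to S1 ratios by 0.872. It left 2 members higher in S3 than in S2, with 16 lower, and 3 higher in S3 than in S1, with 21 lower. This scaling lowers every S3 ratio, and shares of all sequences under it were not computed. The scaled counts can therefore not be set against all sequences. Of the 44 members, 21 had their highest level in S1, 16 in S2 and 7 in S3, that is 47.7%, 36.4% and 15.9%. Among all sequences with a read the shares were 30.2% in S1, 25% in S2 and 44.8% in S3.

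Rare sequences cross 2 times by few reads, so the counts were repeated under stricter rules. Of the 30 members with at least 50 reads, 5 were higher and 8 lower in S2 against S1, where 6.9% and 7.57% of all sequences with as many reads were. In S3 against S2, 2 were higher and 15 lower (all sequences 18.3% and 12.6%), and in S3 against S1, 3 were higher and 18 lower (21.3% and 16.2%). Their highest level lay in S1 for 16, in S2 for 9 and in S3 for 5, while 31.4%, 21.1% and 47.5% of all such sequences had theirs there. When the whole interval of the ratio had to lie beyond 2 times, 5 members were higher and 8 lower in S2 against S1 (2.13% and 1.86% of all sequences with a read). Under this rule 1 was higher and 9 were lower in S3 against S2 (4.8% and 3.86%), and 2 were higher and 17 lower in S3 against S1 (7% and 5.61%).

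**Figure D2:**
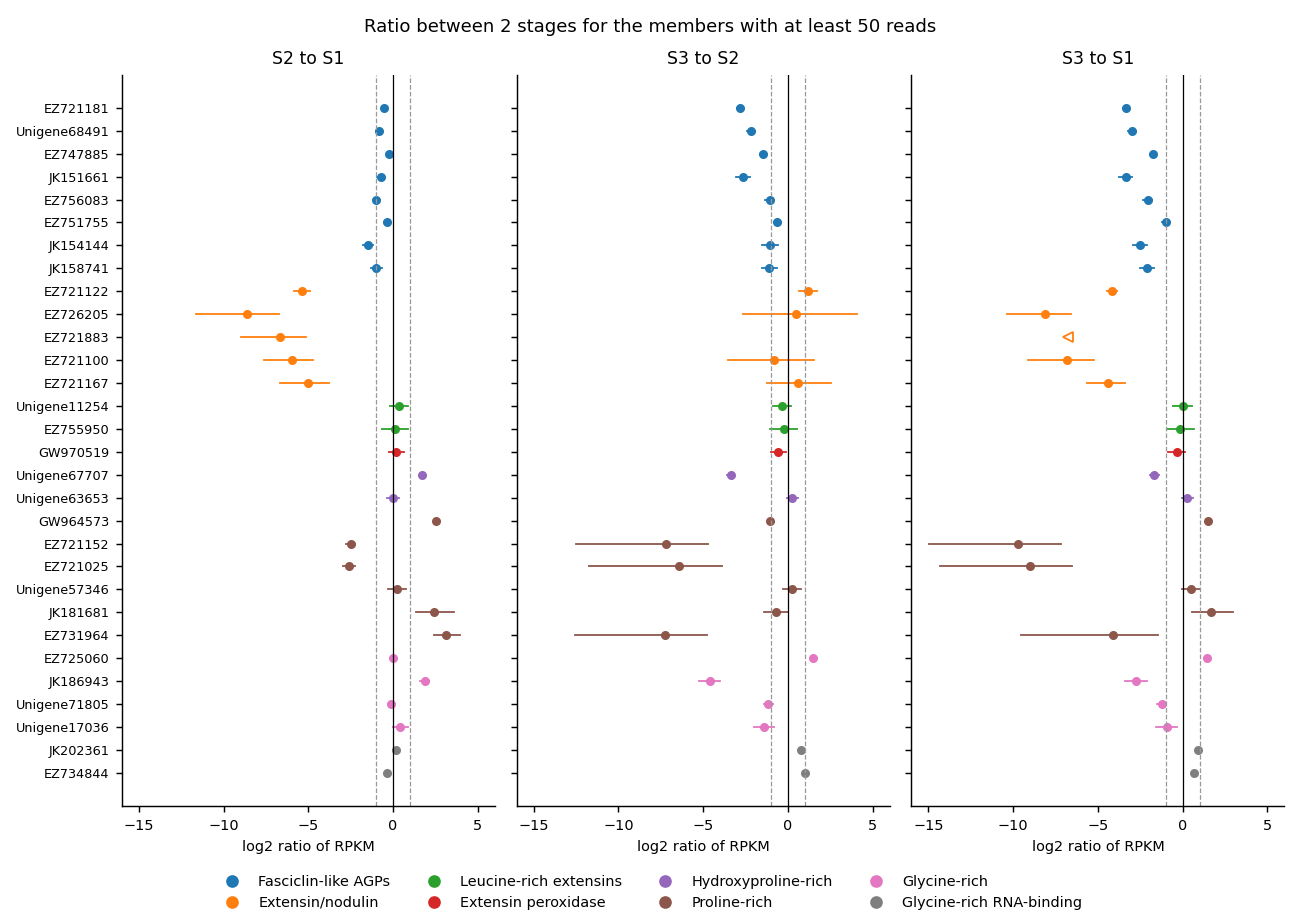
Ratio of RPKM between 2 stages for the 30 members with at least 50 reads, on a log2 scale, 1 panel per comparison, coloured by class. Bars are 95% exact Clopper-Pearson intervals, dashed lines mark 2 times, and the open triangle marks the limit that 3 reads in S3 would set for EZ721883, which had no read there and is not drawn for S3 to S2. All 8 fasciclin-like points lie left of 0 in every panel, and the extensin/nodulin points lie far left in the S2 to S1 and S3 to S1 panels.

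The fasciclin-like arabinogalactan proteins carry fasciclin domains, which act in cell adhesion, beside regions that bear arabinogalactan. In this class 7 of 9 sequences were annotated as anchored to the membrane. No other member was, but only 18 of the 49 had any annotation of a cell component. The anchor is therefore not shown to be particular to this class. All 9 sequences of the class had their highest level in S1. The S2 level of 1 sequence was at least 2 times below that of S1, and 7 sequences were at least 2 times lower in S3 than in either earlier stage. Among all sequences with a read, 9.19% were lower in S2 than in S1. In S3, 11.4% were lower than in S2 and 13.9% lower than in S1. The class sum in RPM was 1161 (1136 to 1187) for S1, 761 (740.2 to 782) for S2 and 211 (201 to 222) for S3. The sums gave a ratio of 0.655 (0.633 to 0.679) for S2 to S1 and of 0.278 (0.262 to 0.294) for S3 to S2. Without its most abundant sequence the class still summed to 721 (S1), 459.7 (S2) and 168 (S3) RPM.

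That sequence, EZ721181, matches FLA2 of red clover (Trifolium pratense). It had 3044 reads (S1), 2011 (S2) and 308 (S3), or 365, 249.6 and 35.7 RPKM, so its level in S3 was 6.99 times lower than in S2 (6.20 to 7.91) and 10.2 times lower than in S1. JK151661, which shares this match, had 142, 85.9 and 13.9 RPKM in S1, S2 and S3, and its S3 to S2 ratio of 0.161 (0.121 to 0.213) lay close to the 0.143 (0.126 to 0.161) of EZ721181. Both sequences kept most of their level while the gynophore entered the soil and lost most of it by the pod stage. Unigene68491, a fasciclin-like domain protein by its poplar match, had 275, 157 and 34.7 RPKM in S1, S2 and S3. EZ747885, matching the cotton protein FLA14, had 120.0, 100.4 and 35.8 RPKM.

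The remaining members of the class moved in the same direction. EZ756083 had 129.5 (S1), 65.0 (S2) and 30.7 (S3) RPKM. JK154144, with the same grapevine match, had 83.4, 29.9 and 14.4 RPKM and was the only sequence of the class whose S2 level lay at least 2 times below S1, with a ratio of 0.359 (0.288 to 0.444). JK158741, matching the cotton FLA13, had 72.5, 36.8 and 17.2 RPKM. EZ751755, matching the cotton FLA10, moved least of those with many reads, with 64.4, 49.7 and 32.4 RPKM. Its S3 to S1 ratio was 0.502 (0.436 to 0.578), just inside 2 times. JK156058 had 1 read in S1 and none in S2 or S3. By S3 the levels of the 8 abundant sequences lay between 13.9 and 35.8 RPKM, a much narrower range than the 64.4 to 365 RPKM of S1.

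The extensin/nodulin sequences all match the same peanut protein, described as a putative extensin/nodulin, nodulins being proteins of legume root nodules, and so may come from few genes. Their summed level differed more between S2 and S1 than that of any other class. For all 5 the S2 level and the S3 level were each at least 2 times below the S1 level, against 9.19% and 13.9% of all sequences with a read. Summed over the class, 490.1 RPM in S1 stood against 8.54 in S2 and 16.2 in S3, and the S2 to S1 ratio was 0.0174 (0.0132 to 0.0226).

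EZ721122, the most abundant extensin/nodulin sequence, had 1771 reads (S1), 42 (S2) and 102 (S3), or 336, 8.25 and 18.7 RPKM. Its level was 40.7 times lower in S2 than in S1 (30.0 to 56.7), and 2.27 times higher in S3 than in S2 (1.57 to 3.33), a difference that was under 2 times after median-of-ratios scaling. EZ726205 had 803 reads (S1), 2 (S2) and 3 (S3), which gave an S2 to S1 ratio of 0.00258 (0.000312 to 0.00935). This ratio was lower than that of EZ721122 and the intervals did not overlap. They hold counting error at most, however, and the S2 level of EZ726205 rests on 2 reads. EZ721883 had 320 reads (S1), 3 (S2) and none (S3), so its level was at least 110-fold lower in S3 than in S1, taking 3 reads in the S3 library as the limit. The exact interval of this ratio, which also holds the error of the S1 reads, reached up to 0.0112. By that interval the level was at least 89.2 times lower, a weaker bound than 110. In the same order of stages, EZ721100 had 327, 5 and 3 reads and EZ721167 had 166, 5 and 8. EZ721122 was thus the only sequence of this class past 2 times between S3 and S2. The others lay between 0.42 and 0.95 RPKM in S2, where RPKM + 1 cannot fall 2 times. Without EZ721122 the class summed to 2.248 RPM in S2 and 1.96 in S3, against 234 in S1.

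The reads of these sequences lay on only part of their length. In S1, where reads were many, they covered 45.5% of the bases of EZ721122, 54.8% of EZ726205, 45.1% of EZ721883, 41.5% of EZ721100 and 23.7% of EZ721167. Among all members with at least 100 reads in S1, 9 of 23 (39.1%) had less than 60% of their bases covered, against 10.9% of all sequences with that many reads. In S2 it was 2 of 18 members (11.1%), against 11.05% of all sequences, and in S3 3 of 13 (23.1%), against 10.2%. RPKM divides by the full length, so levels between genes are compared here only with this reservation, while ratios of 1 sequence between stages are not altered by its length.

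The S1 library also held the markers of green tissue, which moved in the same direction as the extensin/nodulin sequences. The 42 photosystem, chlorophyll a/b-binding and Rubisco small subunit sequences, of which 39 had a read, summed to 3481 (S1), 165 (S2) and 325 (S3) RPM. Of them 22 had an S2 level at least 2 times below S1, and none was past 2 times in the other direction. The shares of all sequences with a read were 9.19% and 9.03%. The number of these markers with no read was 3 (S1), 14 (S2) and 15 (S3). Their part in the result was not tested.

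The leucine-rich repeat extensins join a leucine-rich repeat domain to an extensin-like domain, and members of this family in Arabidopsis act in wall formation of growing cells such as root hairs. All 5 sequences share 1 soybean match. None was past 2 times in any comparison, and the class summed to 13.2 (S1), 16.0 (S2) and 12.7 (S3) RPM. Unigene11254 had 8.34 RPKM in S1 (55 reads), 10.5 in S2 (67 reads) and 8.36 in S3 (57 reads), with an S3 to S1 ratio of 1.00 (0.679 to 1.48). EZ755950 had 7.02, 7.52 and 6.34 RPKM. The other 3 had 6 reads or fewer in each library. For Unigene11254 a difference within its interval was not detectable at this depth.

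The extensin peroxidase GW970519, whose lupin match belongs to the enzymes that cross-link extensin, had 20.4 (S1), 23.4 (S2) and 15.9 (S3) RPKM. Its S3 to S2 ratio was 0.681 (0.493 to 0.936), and its S2 to S1 ratio was 1.14 (0.846 to 1.55). The enzyme's transcript thus stayed within 2 times in the step in which the extensin/nodulin sum dropped to 8.54 RPM in S2, against 490.1 in S1.

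**Figure D3:**
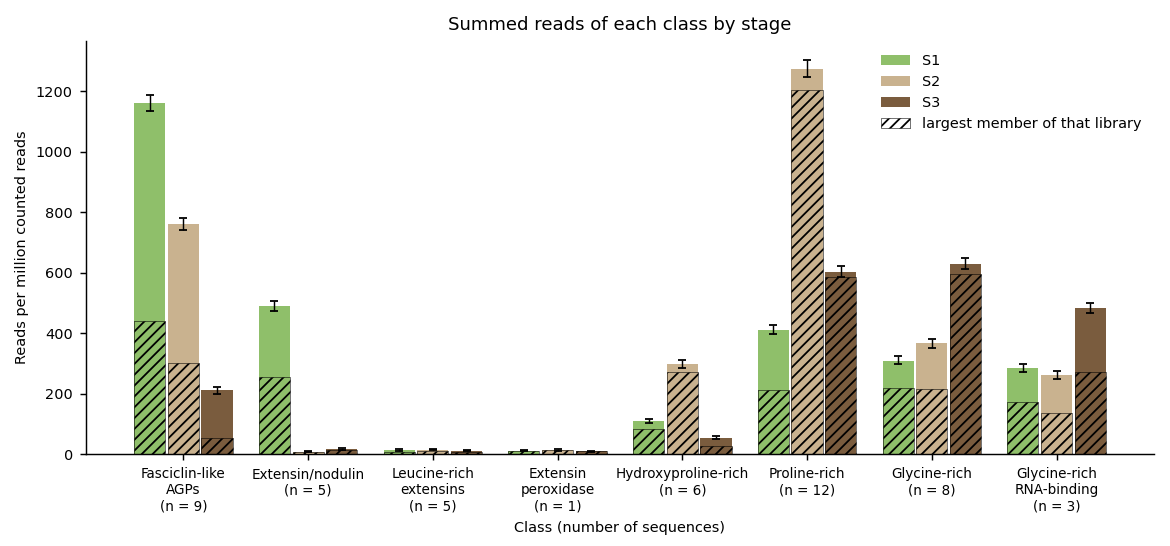
Summed reads of each class, as RPM, in S1, S2 and S3, 1 library each, with 95% exact Poisson intervals. Hatching marks the part of the most abundant member in that library, which reached 94.4% of the proline-rich sum in S2 and 94.7% of the glycine-rich sum in S3. The fasciclin-like sum descends through the stages, and the extensin/nodulin sum is nearly confined to S1.

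Among the hydroxyproline-rich glycoproteins, the class sum was 109.97 (S1), 299 (S2) and 55.7 (S3) RPM, and a single sequence set this pattern. Unigene67707 matches a tyrosine-rich hydroxyproline-rich glycoprotein of parsley, a kind of wall protein whose tyrosines can form cross-links. It had 579 reads (S1), 1822 (S2) and 189 (S3), or 132, 429 and 41.6 RPKM. Its level was 3.26 times higher in S2 than in S1 (2.97 to 3.58) and 10.3 times lower in S3 than in S2 (8.89 to 12.1). The reads covered 98.6% of its bases or more in every library. Without Unigene67707 the class summed to 26.2 (S1), 26.4 (S2) and 29.2 (S3) RPM. Unigene63653, a member of the family by its grapevine match, had 46.9 (S1), 46.9 (S2) and 56.1 (S3) RPKM, and its S3 to S1 ratio was 1.197 (0.961 to 1.49). The other 3 sequences with reads lay between 1.99 and 3.93 RPKM.

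The proline-rich proteins held the highest level of all members and several of the steepest differences, in opposite directions. GW964573, with a soybean proline-rich protein as its match, had 1464 reads (S1), 8033 (S2) and 4189 (S3), or 327, 1857 and 904 RPKM. It ranked 270th of all sequences by RPKM in S1, 22nd in S2 and 45th in S3. Its level was 5.68 times higher in S2 than in S1 (5.37 to 6.01), and 2.77 times higher in S3 than in S1 (2.61 to 2.94). Between S3 and S2 it was 2.05 times lower (1.98 to 2.13), close enough to the limit that the interval included 2. The match behind its name was weak, with an E-value of 1.26e-06. It held 40.1% of the reads of all 49 members in S2 and 29.5% in S3.

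Another pair of proline-rich sequences behaved in the opposite way. EZ721152 had 797 reads (S1), 137 (S2) and 1 (S3), or 132, 23.5 and 0.160 RPKM. EZ721025, which shares its soybean match, had 492, 79 and 1 reads. The S2 to S1 ratios of the pair were 0.178 (0.147 to 0.214) for EZ721152 and 0.166 (0.129 to 0.211) for EZ721025, and their S3 to S2 ratios were 0.00681 (0.000171 to 0.0386) and 0.0118 (0.000295 to 0.0678). Both carried the deposited annotation of chloroplast thylakoid and transport, which is not that of a wall protein, and they fell in the same step as the green tissue markers. The sum of those markers was higher in S3 than in S2, while their median log2 ratio was 0. The pair had 1 read each in S3. The part of green tissue in the levels of the pair was not tested.

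A transient pattern was seen in EZ731964, a match to the DC2.15 precursor, a small proline-rich protein first known from carrot that joins a proline-rich stretch to a cysteine-rich domain. It had 17 reads (S1), 144 (S2) and 1 (S3), or 2.88, 25.2 and 0.164 RPKM. The S2 level was 8.77 times the S1 level (5.29 to 15.5), and the S3 to S2 ratio was 0.00648 (0.000163 to 0.0367). Of the other 5 sequences with the same match, 3 had no read, and JK178859 and JK184550 had 1 read each in all. JK181681, a match to a bean proline-rich protein precursor, had 9 reads (S1), 46 (S2) and 30 (S3), so that the S2 level was 5.29 times that of S1 (2.56 to 12.3). Its 228 bases make it the shortest member, and its reads covered 23.3% of them or less. Unigene57346 had 22.6, 26.5 and 31.2 RPKM and was within 2 times throughout. Unigene52629, named APG isolog after an anther protein and annotated as a hydrolase acting on ester bonds, had 11, 5 and 16 reads.

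For the class as a whole the sum was 412 (S1), 1275 (S2) and 604 (S3) RPM. The same sum without GW964573 was 199.8 (S1), 70.9 (S2) and 17.6 (S3), so the direction of the class depended on this sequence in both comparisons with S1. Of its 9 sequences with a read, 3 were higher and 2 lower in S2 against S1, where 9.03% and 9.19% of all sequences were. In S3 against S2, 1 was higher and 4 were lower (all sequences 18.6% and 11.4%). In S3 against S1, 2 were higher (22.2%, near the 21% of all sequences) and 3 lower (33.3% against 13.9%). JK178859 and JK184550, with 1 read each in all, could not pass the limit.

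The glycine-rich proteins were divided in the same way. EZ725060, matching a rice glycine-rich protein, had 1520 reads (S1), 1439 (S2) and 4264 (S3), or 224, 219 and 606 RPKM. It was 2.77 times higher in S3 than in S2 (2.61 to 2.94), while its S2 to S1 ratio was 0.980 (0.912 to 1.05). JK186943, a match to the tomato protein TomR2 at an E-value of 8.82e-06, showed the transient pattern instead, with 162 reads (S1), 567 (S2) and 25 (S3). In RPKM these were 59.2, 215 and 8.83, so the level was 3.62 times higher in S2 than in S1 (3.04 to 4.34) and 24.3 times lower in S3 than in S2 (16.3 to 37.9). Unigene71805 had 39.7 (S1), 37.3 (S2) and 16.9 (S3) RPKM. Unigene17036, which shares its barrel medic (Medicago truncatula) match with Unigene71805, had 11.6, 15.7 and 5.99 RPKM. Unigene71805 and Unigene17036 were lower in S3 than in S2 by factors of 2.21 (1.82 to 2.70) and 2.62 (1.78 to 3.93).

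The glycine-rich sum was 310.1 (S1), 367 (S2) and 629.8 (S3) RPM, and without EZ725060 it was 90.1, 151 and 33.4. Without this sequence the sum was thus lowest in S3. Of the 7 sequences of the class with a read, 4 were at least 2 times lower in S3 than in S2, against 11.4% of all sequences. The remaining sequences Unigene15255, Unigene18214 and EZ732093 had 24 reads or fewer in each library.

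The glycine-rich RNA-binding proteins join an RNA recognition motif to a glycine-rich tail and are known in Arabidopsis for responses to cold and the circadian clock. They are members by their name and not as wall proteins. All 3 had their highest level in S3. EZ734844 had 233 (S1), 184 (S2) and 369 (S3) RPKM, and JK202361, with the same apple match, had 201, 226 and 378 RPKM. The S3 to S2 ratio was 2.01 (1.85 to 2.17) in EZ734844, which fell just short of 2 times on the scale of RPKM + 1, and 1.68 (1.54 to 1.83) in JK202361. The reads of EZ734844 covered 22.6% of its bases or less in each library. Unigene9299 had 2, 1 and 4 reads.

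The 30 members with at least 50 reads were also sorted by their 2 steps, S2 against S1 and S3 against S2. A level within 2 times in S2 against S1 followed by a lower level in S3 was found in 8 members (26.7%), where 9.18% of all sequences with as many reads took this path, and 6 of these 8 were fasciclin-like. Another 8 were within 2 times in both steps, against 60.9% of all sequences. A higher level in S2 followed by a lower one in S3 was found in 4 members (13.3%) of 3 classes, namely Unigene67707, GW964573, EZ731964 and JK186943, against 2.03% of all sequences. A lower level in S2 that stayed within 2 times afterwards was found in 4 members, against 4.48% of all sequences. All were extensin/nodulin sequences with 1 shared match. Their S2 levels lay between 0.42 and 0.95 RPKM, where RPKM + 1 cannot fall 2 times even to no read. This path therefore cannot tell whether they fell further in S3. A lower level in both steps was found in 3 members, namely JK154144, EZ721152 and EZ721025, against 1.36%. The last 3 paths had 1 member each. EZ721122 was lower and then higher (1.73% of all sequences), JK181681 higher and then within 2 times (3.68%), and EZ725060 within 2 times and then higher (15.4%).

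**Figure D4:**
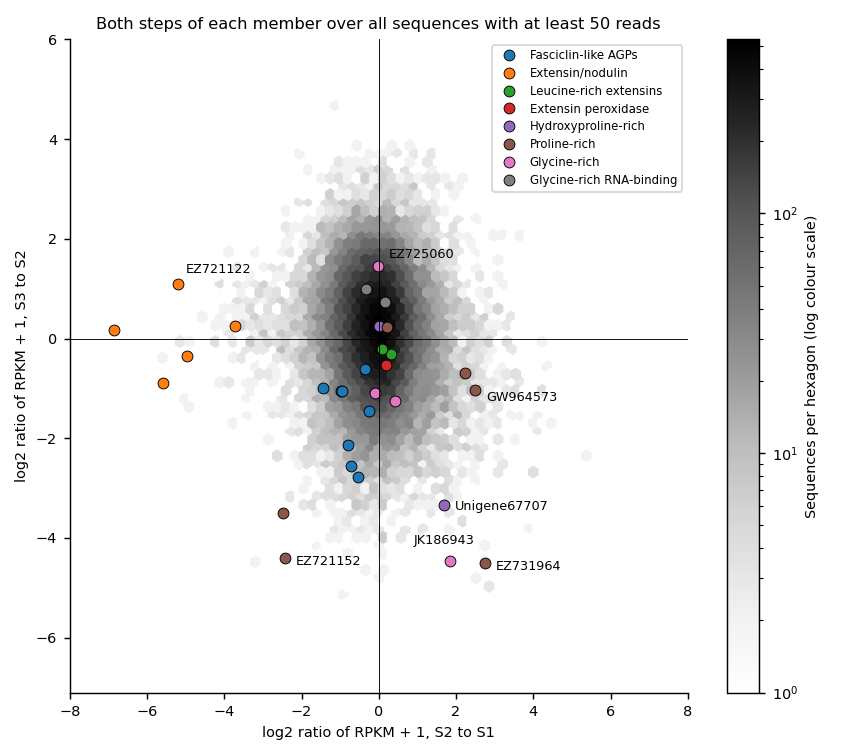
Log2 ratio of RPKM + 1 for S2 to S1 (horizontal axis) and S3 to S2 (vertical axis) of the 30 members with at least 50 reads, coloured by class, over the density of all sequences with as many reads (grey hexagons, log colour scale). Both axes share the S2 library, so the 2 ratios of a sequence are not independent. The 5 extensin/nodulin points lie at the left edge, and GW964573, Unigene67707, EZ731964 and JK186943 lie at the lower right.

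Genes that modify or anchor wall glycoproteins were read from lists of words in the annotation. Beside the counts below, 11.4% of all sequences with a read were lower and 18.6% higher in S3 than in S2. The 3 prolyl 4-hydroxylase sequences, which make the hydroxyproline of extensins and arabinogalactan proteins, summed to 9.26 (S1), 6.29 (S2) and 4.90 (S3) RPM. None was past 2 times in any comparison. However, GW991940 and GW970762 had 2 reads or fewer in each library, too few to pass that limit. Unigene60267 had 61 (S1), 41 (S2) and 34 (S3) reads, and its S3 to S1 ratio was 0.539 (0.343 to 0.833). The 9 sequences of GPI anchor assembly and GPI-anchored receptors summed to 96.5, 109.8 and 98.3 RPM, with 2 lower in S3 than in S2 and none higher. The receptors EZ724247 and Unigene71348, themselves anchored proteins, weighed most in this sum, with 324 and 216 reads in S1. Of the assembly sequences, Unigene64123 had 78 reads in S1 and an S3 to S2 ratio of 0.947 (0.666 to 1.35). For JK160257 this ratio was 1.74 (1.09 to 2.83). The prolyl 4-hydroxylase and GPI sums differed less between stages than that of the fasciclin-like proteins. The GPI sum says little about anchor assembly. The 16 sequences named as galactosyltransferases of such families or as exostosin summed to 214, 204 and 217 RPM, with 1 higher and 1 lower in S3 than in S2. For those named exostosin, such as Unigene9119, the annotation does not give the sugar transferred. This sum is therefore not a measure of arabinogalactan synthesis. The 5 COBRA sequences, GPI-anchored proteins of cellulose deposition, summed to 6.80, 9.14 and 4.48 RPM. The 2 reversibly glycosylated protein sequences, of the family that supplies arabinose in the sugar form used in walls, summed to 29.4, 37.3 and 6.71 RPM in S1, S2 and S3, and both were at least 2 times lower in S3 than in S2. For EZ744328, the abundant member of this pair, the S3 to S2 ratio was 0.192 (0.138 to 0.263).

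The list of secondary wall genes, made up largely of laccases, which polymerize lignin precursors, gave 665 (S1), 444 (S2) and 57.5 (S3) RPM. Of its 19 sequences 15 were at least 2 times lower in S3 than in S2 and none was higher, against 11.4% and 18.6% of all sequences. The median log2 ratio of the list was -1.57, beside -1.06 for the 9 fasciclin-like sequences and 0.18 for all sequences. The wider list of xylem markers, which contains the laccases, summed to 1194, 882 and 264 RPM over 25 sequences. This order of stages was also that of the fasciclin-like sum. The medians did not share it between S2 and S1. There the median log2 ratio was 0.43 for the secondary wall list and 0.35 for the xylem list, beside -0.72 for the fasciclin-like sequences. The part of xylem in the fasciclin-like result was not tested. Markers of dividing cells (histone H4 and cyclin B, 16 sequences) summed to 191, 189.8 and 118 RPM. The 47 seed storage sequences, of which 35 had a read, summed to 198, 333 and 189 RPM. A single conglutin, EZ724139, weighed most in this sum, with 406 (S1), 1232 (S2) and 291 (S3) reads.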

How the data were processed

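RNA of 3 gynophore stages was sequenced, with 1 library per stage. The authors counted reads that align to just 1 place of a reference of assembled unigenes and public peanut sequences, and the deposited read counts were used as given. Recomputing RPKM from reads, length and total gave the deposited RPKM values within a relative deviation of 8.42e-09, and the deposited coverage is the percent of bases under reads. For the aligner, a name was not given in the sources used here.

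Members were matched by words in the deposited annotation and split into classes by further words. Members and lists were chosen with earlier results of these data known. Ratios of RPKM were given as such, and counts and medians used RPKM + 1 with a limit of 2 times, over sequences with a read. Intervals at 95% were exact Poisson for levels and exact Clopper-Pearson for ratios, and those of medians were order-statistic intervals over members. The members to be named were, in each class, the 3 of highest mean RPKM (at least 5) and, in each comparison, the 3 that rose most and the 3 that fell most among those reaching an RPKM of 10 in either library. Other members were named after their values had been seen. Methods were tested on simulated counts. The software was Python 3.11.15 (packages numpy 2.4.6, scipy 1.17.1, pandas 2.3.3, matplotlib 3.10.9). Of the members, 0 matched the supplied peanut gene list, and no genome was used, so no chromosome positions are given.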

Additional observations from a re-analysis of the deposited data

How the results depend on the processing

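No paired analysis was possible because a stage is 1 library, and no library could be left out. The number of members higher in S3 than in S2, 4 as reported, was 2 after scaling by the median of ratios or the upper quartile, with at least 50 reads, with an RPKM of at least 10 in either library, with at least 300 bases, and with public sequences only. It was 1 when the whole interval of the ratio had to lie beyond 2 times, and then 9 members were lower in S3 than in S2. The median log2 ratio of S3 to S1 was -1.73 with at least 50 reads and -2.01 with an RPKM of at least 10 in either library, and in the second case the S3 to S2 median was -1.06. With at least 50 reads, 9 members were highest in S2. Among the 12 unigenes, in S2 against S1 1 was higher and 1 lower, 2 were higher and 5 lower in S3 than in S2, 0 were higher and 3 lower in S3 than in S1, and 4, 4 and 4 were highest in S1, S2 and S3. Their log2 ratios of class sums were reversed for the proline-rich class in S3 to S2 (0.40) and the glycine-rich class in S3 to S1 (-1.16), since GW964573 and EZ725060 are public sequences. In S3, 3 members were highest with public sequences only, and 4 without the peroxidase and RNA-binding classes. In settings added after the data had been seen, 4 members were lower in S2 than in S1 without the extensin/nodulin sequences. With 1 sequence per shared match, 3 were lower in S2 than in S1, 11 were lower in S3 than in S1, 11 were highest in S1 and 8 in S2. These smaller counts come with fewer sequences, 39 and 25 with a read. For the scaled, unigene-only and public-only counts, matching shares of all sequences were not computed. The 46 log2 ratios past 2 times of classes and named members were recomputed 573 times under 14 settings. Apart from the 2 reversed class sums among the unigenes, they kept their sign. For a single member this was bound to happen. Leaving out sequences does not alter its own ratio, and scaling multiplied ratios by only 0.838 to 1.05. A smaller constant added to RPKM cannot reverse a direction. Only class sums, in settings that change the set of sequences, could have reversed.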

Other observations

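At least 10 further sequences of the expression table carry such names only in the protein tables of the study, while their deposited annotation calls them unknown, hypothetical or otherwise. They were looked up after the data had been seen, and the tables could be read only in part. Adding them gave 54 sequences with a read, of which 21 were at least 2 times lower in S3 than in S2 and 5 were higher. The shares of all sequences with a read were 11.4% and 18.6%.

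Among them 4 are named fasciclin-like arabinogalactan proteins, and all 4 were lower in S3 than in S1. Unigene67586 (fasciclin-like arabinogalactan protein 12) had 328 (S1), 117 (S2) and 55.9 (S3) RPKM. Unigene5853 had 122, 109.8 and 31.5 RPKM, and Unigene31002 had 97.3, 94.98 and 5.35 RPKM. In Unigene31002 the S3 to S2 ratio was 0.0563 (0.0222 to 0.120). Unigene50173 had 13, 20 and 3 reads.

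The sequence Unigene70296, named a structural constituent of the cell wall and placed with the leucine-rich repeat extensins by its further description, had 305 (S1), 150.2 (S2) and 47.1 (S3) RPKM. Its level was far above the 8.34 to 10.5 RPKM of Unigene11254. The S3 to S2 ratio was 0.314 (0.275 to 0.358) for Unigene70296, beside 0.794 (0.548 to 1.15) for Unigene11254. These intervals hold counting error at most. A glycine-rich protein, Unigene68854, had 62.5 (S1), 62.9 (S2) and 130.4 (S3) RPKM. Between S3 and S2 this was a ratio of 2.07 (1.81 to 2.38). The interval includes 2, and median-of-ratios scaling brought the ratio to 1.74. The hydroxyproline-rich Unigene19184 had 29.5, 22.0 and 30.8 RPKM.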
